A study of Mus musculus with 2 samples.

Results

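Cluster 14 (C14) is the plasmacytoid dendritic cell (pDC) cluster among the CD11c+ MHCII+ spleen cells of this series. Its members were chosen by the cluster number that the authors deposited for each cell at a clustering resolution of 0.5, and they are 255 of 24343 cells. Of these, 154 cells come from the WT library of 12224 cells and 101 from the Batf3-/- library of 12119 cells. The WT mice were wildtype C57BL/6 and the mutants were C57BL/6-strain Batf3-/- mice, which lack Batf3, a transcription factor that conventional DCs of type 1 (cDC1) need to develop. All mice were 8 weeks old and female. For each genotype the spleens of 6 mice were pooled into 1 library and the experiment was done once. T and B cells were depleted, live CD11c+ MHCII+ cells were sorted, and the cells were stained with 11 antibodies whose DNA barcodes are read as antibody-derived tags (adt) beside the transcripts of each cell. A pDC outside this gate was not measured.

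pDCs are dendritic cells that sense viral RNA and DNA in endosomes, mainly through the Toll-like receptors TLR7 and TLR9, and can release very large amounts of type I interferon. Their identity depends on the E protein Tcf4, which works against the inhibitor Id2 that marks conventional DCs (cDCs), and a resting pDC has the round shape and wide secretory apparatus of a plasma cell. Mouse pDCs carry Siglec-H and BST2 on the surface, express some genes of developing lymphocytes, and take up and present less antigen at rest than cDCs do.

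With 1 library per genotype there is no replicate, so no test was made between genotypes. A cluster built from transcripts was not tested against other clusters on the same transcripts. Gene levels are summed unique molecular identifiers (UMIs, counted transcripts) of a gene per 1000000 UMIs of the same cells (CPM). Their 95% intervals are exact Poisson ones, those of cell shares are Clopper-Pearson, and those of log2 ratios between genotypes follow from the exact binomial split of a gene's UMIs. All of these cover counting error only. C14 held 1560417 UMIs in WT and 1042481 in Batf3-/- cells. The median cell had 8466 UMIs and 2655 genes in WT and 8982 UMIs and 2730 genes in Batf3-/- cells, and single cells ran from 1401 to 26669 UMIs. Mitochondrial genes took a median of 6.90% of the UMIs of WT and 6.74% of those of Batf3-/- C14 cells. Scrublet, which scores each cell against simulated pairs of cells, called 25 of the 154 WT and 14 of the 101 Batf3-/- C14 cells doublets, against 4.43% of all WT and 2.01% of all Batf3-/- cells. The 39 called cells had a median of 17155 UMIs, and they were kept unless stated. The libraries shared 56 cell barcodes, and 1 of the cells that carry them was in C14.

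The targeted gene was measured first. Batf3 (chromosome 1 of GRCm38, 191097847 to 191108945) gave 61 UMIs in WT C14, from 32 cells, and 1 UMI in Batf3-/- C14. These are 39.1 and 0.959 CPM, a log2 ratio of -5.35 (-10.68 to -2.82). Of the 61 UMIs 38 were in doublet calls, and the other 129 WT cells had 20.2 CPM. Even in WT cells this was a low level for the gene, beside WT levels of 87.6 CPM in C3, 141 in C2, 180 in C0 and 238 in the cDC1 cluster C4. The cDC clusters set beside C14 in the following are the 13 that hold at least 100 cells, clusters 0 to 12.

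The label fits the markers. Siglech, the gene of the surface lectin Siglec-H, was at 1927 CPM in WT and 2148 in Batf3-/- C14, while the highest of the 13 cDC clusters, C3, had 110.3 and the median cDC cluster 3.64. Bst2, which encodes an interferon-induced protein that tethers viruses, was at 3837 and 3928 CPM, against 582 in C3. Tcf4 was at 1407 and 1439.8 CPM, against 527 in C3. Pacsin1, an adaptor of endocytosis that mouse pDCs use, was at 191 and 204 CPM, against 4.73 in C3. For all 4 markers the libraries gave similar levels, and the next of the 13 cDC clusters was C3, which the study calls Sox4+ cDCs. For Pacsin1 C4 was level with C3, at 4.68 CPM. Outside those 13, C16 had 610.2 CPM of Bst2, and C13, C16 and C18 had 17.4, 10.2 and 7.73 CPM of Pacsin1. C17 and C18, 2 cDC1 clusters of 91 and 78 cells, are left out of these ranges.

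The markers were also found cell by cell. With each cell thinned at random to 1000 UMIs, 96.1% of C14 cells (92.9 to 98.1) held a UMI of Bst2, 87.1% (82.3 to 90.9) of Siglech, 72.5% (66.6 to 77.9) of Tcf4 and 19.2% (14.6 to 24.6) of Pacsin1. Without thinning the shares were 100%, 99.6%, 99.6% and 84.3%. The cDC1 cluster C4 and the natural killer and T cell cluster C13, which should lack Siglech, gave the background. After thinning, 1 of 2232 C4 cells and 0 of 387 C13 cells held a UMI of Siglech, where 3 cells would be 0.775% and the upper Clopper-Pearson limit is 0.949%. For Bst2 the shares there were 11.9% and 9.82%, for Tcf4 3.67% and 6.98%, and for Pacsin1 0.493% and 1.29%. Median depths before thinning were 8796 UMIs in C14, 15382 in C4 and 5094 in C13. In C3 the thinned share was 9.35% for Siglech, 34.6% for Bst2 and 34.9% for Tcf4. For Pacsin1 it was 0.401%, below the share in C4.

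SingleR, which compares each cell with reference profiles of sorted immune cells, named 242 of the 255 cells pDCs, or 94.9% (91.4 to 97.3). Of the rest, 12 were named DC.8-4-11B- and 1 a monocyte. Those 13 cells, 11 from WT and 2 from Batf3-/-, had a median of 18617 UMIs, and their Siglech level was 953 CPM. The label was rare elsewhere: 73 cells outside C14 carried it, 68 of them in C3. The coarser SingleR labels called 225 C14 cells DCs, 18 B cells or pro-B cells and 12 monocytes. Cells without the DC label had 1999 CPM of Siglech and 1524 CPM of Tcf4, close to the 2018 and 1407 CPM of the cells with it. They differed on other genes, from which these labels were made. The 12 cells with the monocyte label held 5003 CPM of Lyz2, those with the B or pro-B label no UMI of it, and those with the DC label 91.1 CPM. All cells without the DC label together had 3314 against 5568 of H2-Aa and 94.2 against 288 of Cd209a.

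By the ratio of the C14 level to that of the highest cDC cluster, among 1340 genes of at least 100 CPM, the leading 12 were Klk1, Klk1b27, Dntt, Gm21762, Mctp2, Cox6a2, Ly6d, Pgam2, Mzb1, Ctsl, Pir and Atp2a1. Klk1, a kallikrein protease gene, was at 1100.3 CPM in WT and 1020 in Batf3-/- C14, and no cDC cluster passed 1.48 CPM. Its relative Klk1b27 was at 189 and 142 CPM, and reads of such near copies may be split between them. Ly6d, a small surface protein best known as a mark of early B lineage cells, was the highest of the 12, with 3946 and 4004 CPM against at most 29.6.

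Dntt and Mzb1 belong to lymphocyte development or antibody secretion. Dntt, the terminal deoxynucleotidyl transferase that adds bases to antigen receptor genes as they are joined, was at 149 CPM in WT and 82.5 in Batf3-/- C14, and at most 0.269 CPM in a cDC cluster. Mzb1, a chaperone of the endoplasmic reticulum in plasma cells and marginal zone B cells, was at 223 and 159 CPM against at most 2.68. Other genes of the 12 are better known from muscle. Cox6a2, the muscle form of a cytochrome c oxidase subunit, was at 806 and 660.0 CPM against at most 4.78, Pgam2, the muscle phosphoglycerate mutase, at 154 and 145 CPM against at most 1.41 in a cDC cluster and 184 in C16, and Atp2a1, the calcium pump SERCA1, at 109 and 124 CPM against at most 2.53. Ctsl, the lysosomal protease cathepsin L, was at 1727 and 1837 CPM against at most 33.8.

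**Figure D1:**
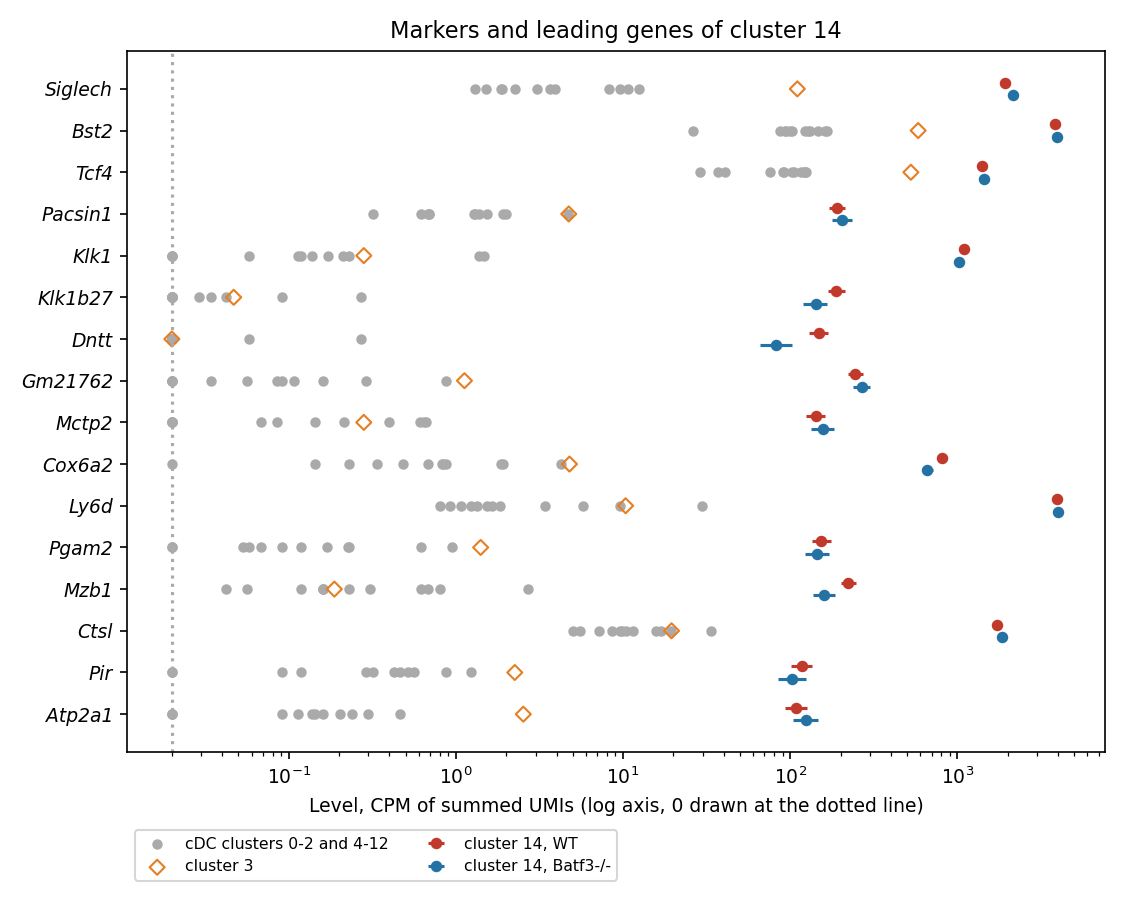
Level of the 4 markers and the 12 leading genes (CPM of summed UMIs on a log axis) in C14 of each library, with exact Poisson 95% intervals as bars, and in the 13 cDC clusters, C3 drawn as an open diamond. In every row both C14 points lie to the right of all cDC clusters, and for Siglech, Bst2 and Tcf4 the cDC cluster nearest to them is C3, at 110.3, 582 and 527 CPM.

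Across all genes, 7597 reached a mean of 10 CPM over C14 and the 13 cDC clusters. Of these, 1.97% (150 genes) were at least 2-fold above the highest cDC cluster in C14, 0.763% (58 genes) at least 2-fold below the lowest, 12.5% above the highest by any margin and 6.69% below the lowest by any margin. Against this background all 4 markers were in the first class, as C14 was named for them. The published Immgen pDC signature, which the study also used, was less fully measured. The files list 69 of its 86 genes, 15 reached 10 CPM, and 13 of these 15 were at least 2-fold above every cDC cluster. A gene that reaches the minimum only through C14 has to be high there. Among its strongest members were Rpgrip1 at 386 CPM in WT and 355 in Batf3-/- C14, Upb1 at 329 and 335, and the kinase gene Prkca at 151 and 173.

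E proteins such as Tcf4 bind the E-box, so the promoters of the leading genes were read for the letters CAGGTG on either strand, that is CAGGTG or CACCTG. RefSeq promoters of GRCm38.p6, each from 250 bases before to 50 bases after a gene's start, were found for 37 of the 50 leading genes, with 44 windows. Of these windows 13 held the motif, 29.5% (16.8 to 45.2), beside 20.2% of all 32851 windows. The all-promoter share lies within the interval of the leading genes. A match describes letters in a window and was not tested as a binding site. The sequences below are the motif (capitals) and its surroundings in the promoters of Siglech, Bst2 and 3 of the leading genes, shown as examples of marker and leading genes that hold it, on the strand of the gene:
Siglech: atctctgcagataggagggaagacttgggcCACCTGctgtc
Bst2: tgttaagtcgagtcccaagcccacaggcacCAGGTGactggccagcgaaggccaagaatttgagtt
Klk1: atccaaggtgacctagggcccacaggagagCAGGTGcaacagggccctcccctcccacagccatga
Mctp2: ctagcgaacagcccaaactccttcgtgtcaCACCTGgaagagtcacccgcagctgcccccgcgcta
Pgam2: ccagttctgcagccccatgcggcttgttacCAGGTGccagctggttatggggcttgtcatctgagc
They lie at chr7:55768134-55768174 on the plus strand (Siglech), chr8:71537642-71537707 on the minus strand (Bst2), chr7:44225243-44225308 on the plus strand (Klk1), chr7:72306710-72306775 on the minus strand (Mctp2) and chr11:5803893-5803958 on the minus strand (Pgam2). The windows of Dntt, Ctsl, Pir, Atp2a1 and Pacsin1 do not hold these letters, and Klk1b27 holds them after its start.

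Transcription factors known from pDCs were high as a group and most of those known from cDCs low. All 14 genes on the list of pDC regulators reached the 10 CPM minimum. Of these, 6 were at least 2-fold above every cDC cluster: Tcf4, Runx2, Tcf12, Irf7, Spib and Ets1. Of all tested genes 1.97% were. Tcf4 is also one of the 4 markers that C14 was named for, and Ets1 had 81.1 CPM in C14 and a cDC median of 5.03. Runx2, which pDCs need to leave the bone marrow, was at 467 CPM in WT and 463 in Batf3-/- C14 against at most 86.9. Tcf12, another E protein, was at 136 and 151 CPM against at most 40.4, and Spib, an Ets factor, at 224 and 216 CPM against at most 102. Irf8, which both pDCs and cDC1 express, had the highest level of the list, 2960 and 2996 CPM, and the cDC1 cluster C4 followed at 1963. Bcl11a exceeded C3 by little, with 516 and 584 CPM against 465. One member went the other way: Cbfa2t3, a corepressor, was at 212 and 169 CPM, below the lowest cDC cluster at 268.

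On the list of 14 cDC regulators, 13 reached the minimum, none was above the highest cDC cluster, and 5 were below the lowest. Over all tested genes 12.5% were above the highest and 6.69% below the lowest, so a list of this size may hold none above. Zbtb46, the factor that marks committed cDCs, was at 14.1 CPM in WT and 8.63 in Batf3-/- C14, while cDC clusters ran from 43.2 to 128. Zfp366 was at 14.7 and 13.4 CPM, below the lowest cDC cluster at 30.2. Mycl went the other way, with 55.8 and 64.3 CPM against a cDC median of 35.6, and Klf4, at 144 and 156 CPM, was near its cDC median of 156. Id2 was at 204 CPM in WT and 71.9 in Batf3-/- C14, and the lowest cDC cluster held 61.3. Of its 318 WT UMIs 198 were in doublet calls, and without doublet calls its WT level was 106 CPM and its log2 ratio between genotypes -1.55. The myeloid factor Spi1 (PU.1), not on these lists, was at 155 and 122 CPM where no cDC cluster was below 282. It was among the 8 genes with the lowest ratio to the lowest cDC cluster, of 452 genes with at least 100 CPM in each cDC cluster. The other 7 were Nav1, Bcl2a1d, Bcl2a1b, Marcks, Pmaip1, Efhd2 and Slamf7. Bcl2a1b, a survival gene of the Bcl2 family, was at 140 and 146 CPM against at least 254, though it shares sequence with its neighbour copies. Nav1 was the one gene of the 452 at least 2-fold below the lowest cDC level, with 42.9 and 48.0 CPM against at least 104.

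**Figure D2:**
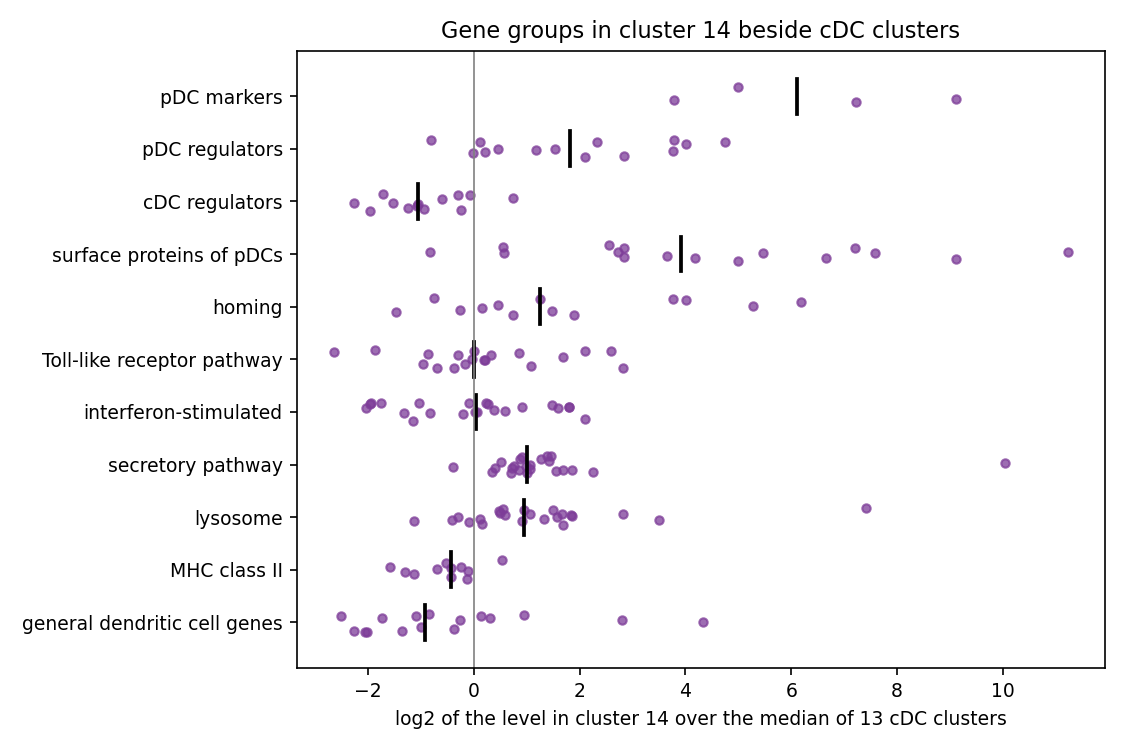
Each point is a gene of a list that reached 10 CPM, placed by the log2 ratio of its level in C14 (both libraries) over the median of the 13 cDC clusters, with the list's median as a black bar. Some genes stand on more than 1 list; the medians of the cDC regulators (-1.06), MHC class II (-0.44) and general DC genes (-0.92) lie below 0, those of pDC regulators (1.82), secretory (1.01) and lysosome genes (0.94) above, and the median over all 7597 genes is 0.09.

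Surface proteins known from pDCs were high in C14 as a group. Of 20 such genes 16 reached the minimum and 9 were at least 2-fold above every cDC cluster. The list holds Siglech and Bst2, and members such as Ly6d reach the minimum only through C14, so this count describes the choice of genes. Ly6a (Sca-1) was at 1958 CPM in WT and 1811 in Batf3-/- C14 against at most 63.3, and Ly6c2, which encodes part of the Ly6C antigen, at 1485 and 1655 CPM against 139.9 in C3. Its near copy Ly6c1 was at 3.46 CPM over both libraries, and reads of the pair may be split. Lair1, an inhibitory collagen receptor, was at 568 and 676 CPM against at most 142, and Cd300c at 352 and 303 CPM against at most 78.7. Lag3 and the lectin gene Cd209d were shared with C3: Lag3 was at 245 and 269 CPM against 226 there, Cd209d at 425 and 413 CPM against 274. Cd7, in contrast, was at 236 and 230.2 CPM in C14 and at 499.6 in C3.

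Among 14 homing genes, Ccr9, the receptor for the chemokine of thymus and gut, stood out at 631 CPM in WT and 639.8 in Batf3-/- C14 against at most 43.4. Ccr7, which leads mature DCs to lymph nodes, was at 116 CPM in WT and 22.1 in Batf3-/- C14, and cDC clusters reached 1954. The integrin gene Itgam (CD11b) was at 11.1 CPM over both libraries, against a cDC median of 30.8.

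Of 25 genes of Toll-like receptors and their pathway, which include some receptors for ligands other than nucleic acids, 19 reached the minimum. At least 2-fold above every cDC cluster were 3 of them, beside 1.97% of all tested genes, and the list's median was at the cDC level. Tlr7, the sensor of single-stranded RNA, was at 68.6 CPM in WT and 51.8 in Batf3-/- C14 against at most 31.9. Tlr9 was counted 14 times in all C14 cells, 5.38 CPM (2.94 to 9.02), within the range of the cDC clusters (1.07 to 19.2 CPM). Tlr12 was at 46.1 and 49.9 CPM, with the cDC1 cluster C4 at 39.8. Unc93b1, which carries these receptors to endosomes, was at 561 and 559 CPM against at most 423, and Pld4, an endosomal nuclease, at 788 and 835 CPM against at most 402. Irf7, the factor that switches on interferon genes, was at 320 and 278 CPM against at most 120.5.

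Of the interferon genes of the list only Ifnb1, the gene of interferon beta, was analysed here, and it gave 4 UMIs, all in 1 Batf3-/- cell. The receptor genes Ifnar1 and Ifnar2 were each above every cDC cluster: Ifnar2 was at 225 CPM in WT and 231 in Batf3-/- C14 against at most 96.1, and Ifnar1 at 156 and 166 CPM against at most 145. Of 25 interferon-stimulated genes 22 reached the minimum, and only Irf7 was at least 2-fold above every cDC cluster; Ly6e and Trim30a were above by less. Ly6e was at 2144 and 2098 CPM against at most 1095. Of the 22 genes 12 were above the cDC median and 10 below it, with a median log2 ratio of 0.05. Ifi27l2a was at 788 CPM over both libraries against a cDC median of 225, and Usp18 at 56.5 against 37.7. Ifit3 was at 5.13 and 6.71 CPM against a cDC median of 11.8, Isg15 at 86.5 and 92.1 CPM against 94.3, and Ifitm3 at 306 and 197 CPM against 1015.

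The secretory and degradative machinery was high as a group. Of 24 secretory genes 23 reached the minimum and 13 were above every cDC cluster, beside 12.5% of all tested genes. Of the 13 genes 3 (Mzb1, Xbp1 and Tram1) were above by at least 2-fold. Mzb1 reached the minimum only through C14, so its place in this count was fixed beforehand. Xbp1, the factor that builds the secretory apparatus, was at 239 CPM in WT and 231 in Batf3-/- C14 against at most 78.8. The translocon gene Sec61b was at 1006 and 925 CPM against at most 761, and the chaperone gene Hsp90b1 at 909 and 772 CPM against at most 747. The dividing cDC1 cluster C6 held the highest cDC level of these 3 genes. Of 24 lysosomal genes 23 reached the minimum and 9 were above every cDC cluster, again beside 12.5% of all tested genes. Next to Ctsl, Ctsb was at 1464 and 1449 CPM against at most 589.6, and Grn, the progranulin gene, at 772 and 851 CPM against at most 146. Psap and Gm2a did not follow: Psap was at 2673 and 2303 CPM with 4041 in C4, and Gm2a at 513 and 483 CPM, below the cDC median of 1093.

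MHC class II genes were present and lower than in most cDC clusters. H2-Aa was at 5151 CPM in WT and 5571 in Batf3-/- C14 against a cDC median of 7673, and Cd74, the invariant chain, at 12804 and 13048 CPM against 17375. Among C14 and the 13 cDC clusters, the C14 level ranked 12 of 14 for H2-Aa and 13 of 14 for Cd74. Ciita, the master regulator of the class, was at 181 and 163 CPM against 431. Itgax (CD11c) was at 108 and 91.1 CPM against a median of 202. Of a list of 16 general DC genes (growth factor receptors, co-stimulatory molecules and cDC genes such as Zbtb46 and Itgax) all reached the minimum. Below every cDC cluster were 8 of them, beside 6.69% of all tested genes, with Cd80 at 4.61 CPM, Cd86 at 22.3 and Cd40 at 21.5 over both libraries. Il7r, the receptor for interleukin 7, and Csf2rb2 were the 2 members above every cDC cluster, and Csf2rb, Csf1r and Btla were above the cDC median. Il7r was at 227 and 232 CPM against at most 70.5, and Csf2rb2 at 129 and 142 CPM against at most 57.6. Flt3, the receptor that drives DC development, was at 117 and 86.3 CPM against a median of 126.

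By the deposited phases 237 of 255 were in G1, 15 in S and 3 in G2M, so that 7.06% were outside G1. In the 15 cDC clusters together 27.5% were, but these include C5, C6, C7 and C10, which the study calls mitotic. In WT 8.44% and in Batf3-/- C14 4.95% were outside G1. The 10 genes of a cell cycle list summed to 167 CPM in C14, where cDC clusters ran from 108 to 5741 CPM. Their median log2 ratio to the cDC median was -0.04.

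Other lineages were looked for by their markers. Of 8 B cell genes 3 had no UMI in C14, Pax5 and Cd79a among them. The list summed to 162 UMIs, or 62.2 CPM, of which Cd79b, a chain of the B cell receptor, gave 140 UMIs against a cDC median of 39.5 CPM for a C14 level of 53.8, and 10 of 255 cells held 2 of the genes. The 8 T cell genes, 5 of which are in the files, summed to 5.76 CPM with no cell holding 2 of them. Of 8 natural killer genes 6 had no UMI, and Klrd1 made up nearly all of the 299 CPM, with 261 CPM in WT and 356 in Batf3-/- C14, close to its cDC median of 249.5. Neutrophil, basophil and platelet lists summed to 1.15 CPM or less. The plasma cell list summed to 251 CPM in WT and 244 in Batf3-/- C14, most of it Xbp1, against at most 161 in a cDC cluster, and 25 of 255 cells held at least 2 of its genes. On the list of type 2 cDCs, Clec10a was at 243 CPM in WT and 218 in Batf3-/- C14 against at most 78.8 in a cDC cluster. The 7 genes of that list had a median log2 ratio of -0.75 to the cDC median. On the cDC1 list Clec9a was at 113 and 125 CPM, with C4 at 323. The 6 genes of that list that reached the minimum had a median log2 ratio of 2.16 to the cDC median. Most clusters behind that median are not cDC1 clusters, so the ratio does not compare C14 with cDC1. The whole list summed to 252 CPM in C14, against 2451 in C4, 1139 in C6 and 200 in C12, the cDC1 clusters in that median.

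The adt are a readout that did not enter the clustering. The tag rows carry no names, so a row was matched to an antibody only where, over the cells outside C14, row and gene were each other's best Spearman correlation. This held for 5 of 11 rows: CD4 (0.362), CD8A (0.537), CD11B (0.282), CD24 (0.550) and CD172A (0.342). The match is a description over cells that share libraries and depth, and it was close for CD11B and CD24, whose rows correlated at 0.266 and 0.523 with their next genes. The Siglec-H row was not matched and is not reported.

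CD4 was the tag that set C14 apart. Its median was 79 counts per cell in WT and 65 in Batf3-/- C14, 76 over both, while the medians of the 13 cDC clusters ran from 26 to 38. The transcript showed the same order, with Cd4 at 266 and 202 CPM against at most 108. Within C14 the 206 cells with a Cd4 UMI had a median of 83 CD4 counts and the 49 without one a median of 39, at median depths of 8810 and 8681 UMIs. The pattern was present in each library: 87.5 and 41 counts in WT, 73 and 37 in Batf3-/- cells.

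CD8A divided C14. The median was 55 counts in WT and 51 in Batf3-/- C14, above 9 of the 13 cDC clusters (39 to 47), near C3 and C6 (55 and 56) and below C12 and C4 (96 and 122). The deposited normalized values, 0.68 in WT and 0.76 in Batf3-/- C14, are on a scale that differs between the libraries and are not compared between genotypes. Cells with a Cd8a UMI, 126 of 255, had a median of 76 counts, and the 129 without one a median of 45. SingleR split the pDCs into 32 DC.PDC.8+ and 210 DC.PDC.8- cells, and the tag, which that label did not use, had a median of 78 in WT and 86 in Batf3-/- DC.PDC.8+ cells and of 49 in DC.PDC.8- cells of either library. In the former the lower and upper quartiles were 57.5 and 99.8, in the latter 40 and 77.5, so the groups overlapped. The equal medians of 49 counts in DC.PDC.8- cells had normalized values of 0.63 in WT and 0.74 in Batf3-/- cells. Cd8a was at 264 CPM in WT and 699 in Batf3-/- DC.PDC.8+ cells, and at 153 and 194 in DC.PDC.8- cells.

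CD11B, CD172A and CD24 ranked 9 to 13 among C14 and the 13 cDC clusters. CD11B had a median of 36 in WT and 27 in Batf3-/- C14, where cDC clusters ran from 31 to 69, and CD172A 28 and 35, where they ran from 23 to 44. For CD24, high on cDC1, the medians were 35 and 30, beside 130 in C4. Its normalized values were 0.50 in WT and 0.56 in Batf3-/- C14, on the scale that differs between the libraries. The CD11B counts were lower and the CD172A counts higher in the Batf3-/- library, and whether staining or genotype is behind this cannot be told apart with 1 library each. The normalized CD172A values, 0.64 in WT and 0.62 in Batf3-/- C14, do not bear on this, as their scale differs between the libraries.

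**Figure D3:**
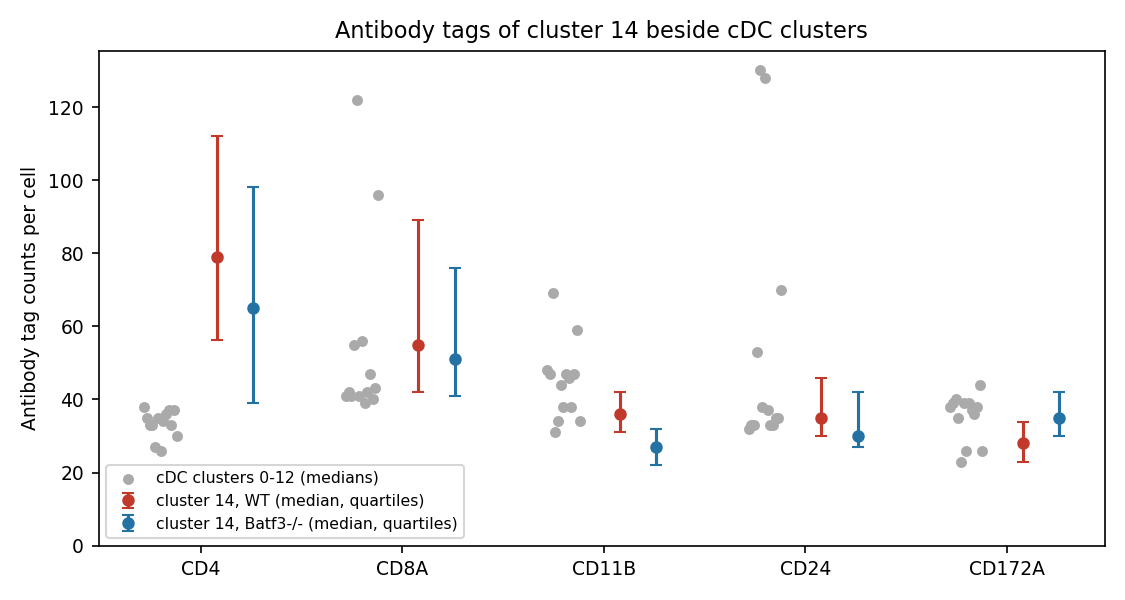
Tag counts per cell for the 5 matched antibodies: grey points are medians of the 13 cDC clusters, and coloured points the medians of C14 in each library with the quartiles as bars. For CD4 both C14 medians, 79 and 65, lie above every cDC cluster, and for CD8A, CD11B, CD24 and CD172A they lie within or, for CD11B and CD24 in Batf3-/- cells, just under the cDC range.

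C3 held the highest cDC level of all 4 markers and of 5 of the 12 leading genes, C7 that of 4 others. In C3, 68 of its 2245 cells, 3.03% (2.36 to 3.82), carried a pDC label, 19 from WT and 49 from Batf3-/-. These 68 cells had 1579 CPM of Tcf4, close to C14 with 1420.0, but 645 of Siglech and 34 of Pacsin1, and their Klk1 (3.22), Ctsl (108) and Irf8 (765) levels were far below those of C14. Their median CD8A tag was 87 and their median CD4 tag 36.5, while C14 had 53 and 76 and the other C3 cells 55 and 33. The label was given from the transcripts, so their gene levels describe the choice. The tags did not enter it but are not free of it. Cd8a, with which the CD8A tag correlated at 0.537, was at 1029 CPM in these cells and 286 in the other C3 cells.

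C14 made up 1.26% of WT cells (1.07 to 1.47) and 0.833% of Batf3-/- cells (0.679 to 1.01). The intervals do not overlap, and they do not cover the spread between mice. The cDC1 clusters, of which C4, C12, C17 and C18 held few Batf3-/- cells and C6 727, bear on the denominator: without C4, C6, C12, C17 and C18 the shares were 1.78% and 0.892%. With the doublet calls left out they were 1.10% and 0.733%.

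Between genotypes C14 was alike in nearly all genes. For 2759 genes the libraries averaged 50 CPM or more and held 20 UMIs or more in sum. The middle 90% of them had log2 ratios, Batf3-/- over WT, from -0.38 to 0.38, with a median of 0.03. Of these genes, 0.58% (16 genes) were past 2-fold, of which 0.0362% (1 gene) were at least 2-fold higher and 0.544% (15 genes) at least 2-fold lower in Batf3-/- C14. None of the 4 pDC markers, 13 pDC regulators, 22 secretory genes or 20 lysosomal genes that passed this minimum was past 2-fold. At a share of 0.58% over all genes, lists of this size would mostly hold none, so this does not set them apart. Lists with 1 gene past 2-fold were cDC regulators (Id2, of 5 genes), homing (Ccr7, of 10), cytokines (Ccl5, of 3) and monocyte markers (Lyz2, of 3). On the MHC class II list 1 of 10 was, and it was Cst3, which encodes cystatin C and no MHC chain. The log2 ratio was 0.16 (0.08 to 0.24) for Siglech, 0.03 for Bst2 and for Tcf4, and 0.10 for Pacsin1.

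The 5 lowest ratios were those of Ccl5, Ccr7, Lyz2, Nr4a1 and Apoe. Ccl5, a chemokine gene, was at 638 CPM in WT and 56.6 in Batf3-/- C14, a log2 ratio of -3.49 (-3.90 to -3.11). Ccr7 was at 116 and 22.1 CPM, -2.39 (-3.09 to -1.76), and Lyz2, the lysozyme gene of myeloid cells, at 517 and 129 CPM, -2.01 (-2.28 to -1.74). The immediate early gene Nr4a1 was at 87.8 and 26.9 CPM and Apoe, a lipid carrier, at 254 and 88.3 CPM. The remaining 10 were Apol7c, Id2, AW112010, Cebpb, Cd9, Aif1, Cst3, Dnase1l3, Pou2f2 and Ifitm2. Cst3, cystatin C, was at 3252 and 1372 CPM in C14, and Id2 had a log2 ratio of -1.50 (-1.89 to -1.14).

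**Figure D4:**
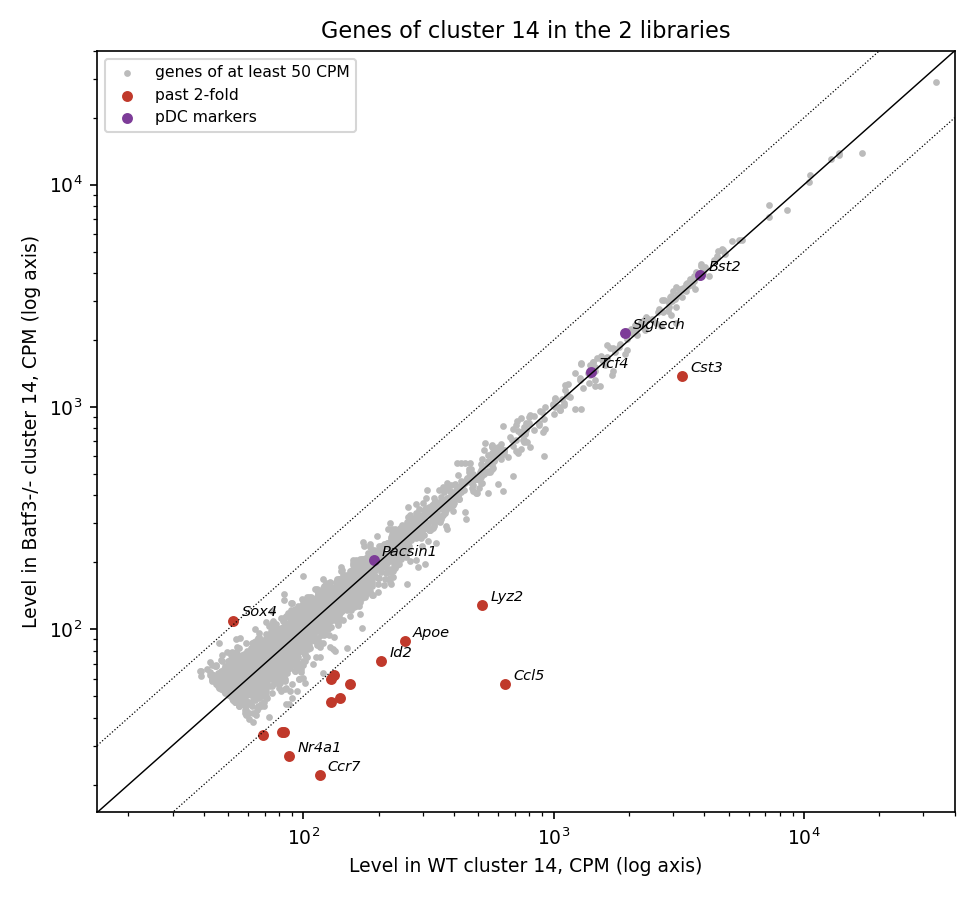
Levels of the 2759 genes in C14 of the WT and the Batf3-/- library, in CPM on log axes, with the line of equality and dotted lines at 2-fold. The markers lie on the line, 15 genes lie under the lower dotted line with Ccl5 farthest (638 against 56.6 CPM), and Sox4 alone lies above the upper one.

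Most WT UMIs of Ccl5, Ccr7 and Lyz2 were held by few cells. Cst3 was found in all 154 WT cells, but 5 of them held 36.2% of its WT UMIs, and the median cell had 1544 CPM in WT and 1250.4 in Batf3-/- C14. For Id2, 5 WT cells held 35.2%. Of 995 WT UMIs of Ccl5, 950 came from 13 of 154 cells with at least 10 each, and 66.9% from 5 cells. Of these 13 cells 9 were doublet calls and 6 carried a pDC label. Their median depth was 15129 UMIs against 8308 in the other WT cells, and their median Siglech level 1010 CPM against 2266. In 9 of the 13 there were also at least 5 UMIs of Ccr7. Lyz2 lay in other cells: 13 WT cells with at least 10 UMIs held 94.0% of its WT UMIs, 2 of them were among the Ccl5 cells, 3 were doublet calls and 3 carried the DC label of the coarser set. Each of these 13 Lyz2 cells also held UMIs of Nr4a1. For Apoe, 23 WT cells with at least 5 UMIs held 76.3% of its WT UMIs, and 8 of them were among the Lyz2 cells. All of the Ccl5 and Lyz2 cells held Siglech UMIs. One Batf3-/- cell reached 10 UMIs of Ccl5 and 2 reached 10 of Lyz2.

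Of the cDC1 list, Xcr1, Naaa, Cadm1, Cd36 and Tlr3 were lower in Batf3-/- C14, while Clec9a and Itgae were not. Clec9a, the one that passed the minimum for genotype ratios, was at 113 CPM in WT and 125 in Batf3-/- C14, a log2 ratio of 0.14. Xcr1 gave 41 UMIs in WT C14 and 1 in Batf3-/- C14, 33 of the 41 in 5 cells, Naaa 117 and 14, Cadm1 84 and 33, Cd36 32 and 9, Tlr3 17 and 0, and Itgae 1 and 1. The list of 7 cDC1 markers summed to 301 CPM (274 to 329) in WT and 180.3 CPM (155 to 208) in Batf3-/- C14, and 31.8% and 32.7% of cells held at least 2 of its genes. The 7 cDC2 markers summed to 661 and 638 CPM. The 8 monocyte markers summed to 764 and 405 CPM, of which Lyz2 was 517 and 129 CPM, with Cd14 at 4 and 1 UMIs and Fn1 at 0 in both libraries. Their part in the genotype ratios was not tested.

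Leaving cells out changed these ratios to different degrees. In the 143 WT and 99 Batf3-/- cells with a pDC label, Ccl5 was at -2.99, Lyz2 at -1.74, Ccr7 at -0.87 and AW112010 at -0.58. Of the 13 WT cells rich in Ccl5, 6 carry this label and were kept here. Without the doublet calls Ccl5 was at -3.13, Ccr7 at -1.96, Lyz2 at -3.45 and Cst3 at -0.90. Of the 16 genes, 7 again passed the 50 CPM minimum and were past 2-fold among pDC-labelled cells, and 6 did so without doublet calls. Other genes fell under that minimum with ratios still past 2-fold, such as Ccr7, Nr4a1 (-2.76) and Cd9 (-2.41) without doublet calls. By ratio, AW112010 (-0.63), Cst3 and Sox4 (0.74) alone were within 2-fold there. In other clusters some of these genes had like ratios and others did not. Cst3 was also lower in the Batf3-/- library in the natural killer and T cell cluster C13, with 2387 and 882 CPM (-1.44), and in C15, with 9646 and 4027 CPM (-1.26), but not in C0 (0.22) or C4 (0.17). Apol7c was at -1.59 in C13, -1.75 in C4 and -0.10 in C0, and Dnase1l3 at -1.47 in C15 and -0.02 in C0. Ccl5 was lower in Batf3-/- cells in C0 (-1.49), C2 (-0.97), C3 (-1.15) and C4 (-1.70), but not in C13 (0.01) or C15 (0.25). Nr4a1 was lower in Batf3-/- cells in C0 (-0.41), C2 (-0.55), C3 (-0.53), C4 (-0.95), C13 (-0.44) and C15 (-0.53). Ccr7 was at 0.32 in C0 and 0.47 in C3, and Lyz2 at -0.17 and 0.84.

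**Figure D5:**
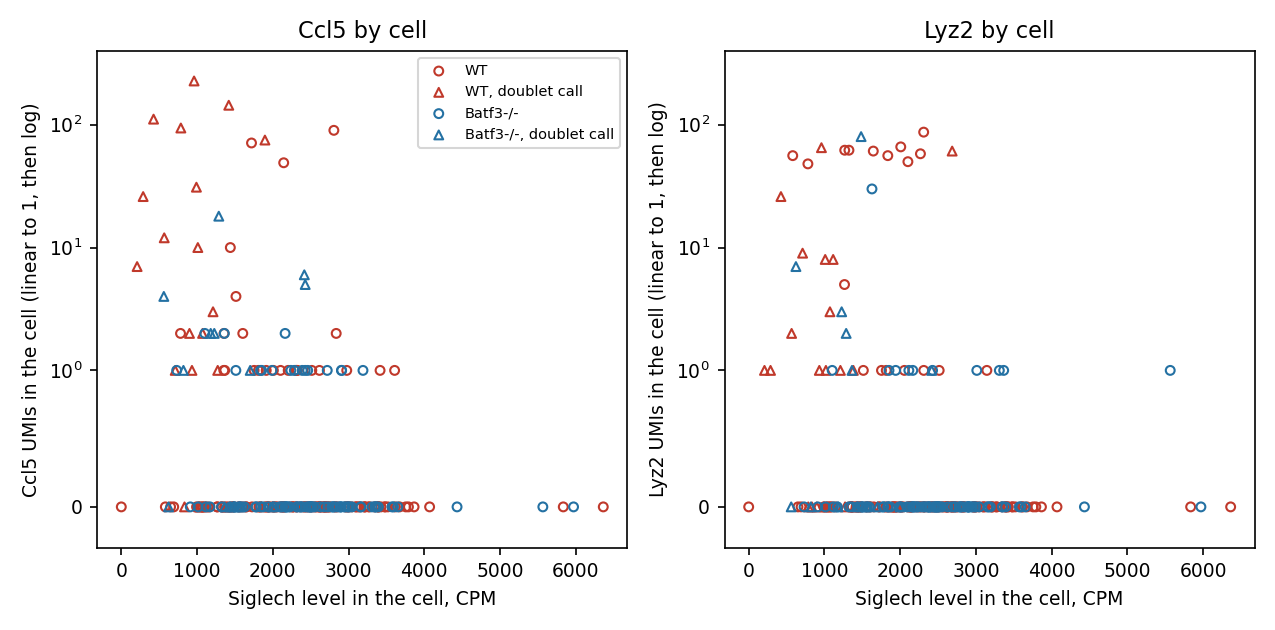
Each point is a C14 cell, by its Siglech level (CPM) and its UMIs of Ccl5 or Lyz2 (linear to 1, then log), coloured by library, with doublet calls as triangles. The 13 WT cells with at least 10 UMIs of Ccl5 have a median Siglech level of 1010 CPM, against 2266 in the other WT cells, and most cells of either library have no UMI of either gene.

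The 5 highest ratios were Sox4, Haao, Lifr, Egr1 and P2ry6. Sox4, which the study takes as the mark of C3, was at 52.5 CPM in WT and 109 in Batf3-/- C14, a log2 ratio of 1.06 (0.64 to 1.48), and 33 Batf3-/- and 35 WT cells held its UMIs. Lifr, the receptor of leukemia inhibitory factor, was at 99.3 and 174 CPM, 0.81 (0.49 to 1.12), spread over 89 and 76 cells, and cDC clusters reached 29.2. Without doublet calls Sox4 was at 0.74. In other clusters its log2 ratio was 0.27 (C0), 0.69 (C2), 0.73 (C13), 0.11 (C3) and 0.05 (C4), and C15 held 2 WT and 28 Batf3-/- UMIs of it. Dntt and Cd4 also had intervals away from 0 without reaching 2-fold. Dntt had a log2 ratio of -0.85 (-1.22 to -0.49), with UMIs in 103 of 154 WT and 44 of 101 Batf3-/- cells, and Cd4 one of -0.39 (-0.64 to -0.15), the same direction as its tag. The tags of all antibodies together were also fewer in Batf3-/- C14, with medians of 467 per cell against 533.5 in WT. As a share of all tags CD4 had medians of 15.3% in WT and 13.6% in Batf3-/- C14.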

How the data were processed

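Per the labels and the study's methods, the authors processed the libraries with bcl2fastq 2.2.0 and Cell Ranger on GRCm38, evened sequencing depth, filtered cells and clustered them in Seurat 3.0.5. The raw tables they deposited hold counts (UMIs per gene and adt per antibody). Normalized adt are deposited as centered log-ratios on a natural log scale, which differs between the libraries. Per cell, the authors also gave the mitochondrial and ribosomal fraction of UMIs and a score for S and for G2M. The clusters, SingleR names and phases are theirs and were taken over. Totals recomputed from the counts equalled the deposited ones in 12224 WT and 12119 Batf3-/- cells.

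Levels, ratios and intervals were computed in Python 3.11.15 with numpy 2.4.6, scipy 1.17.1 and pandas 2.3.3 and tested on simulated data. Doublets were called per library with Scrublet in scanpy 1.11.5 at an expected rate of 0.10. The cells and gene lists were chosen with earlier results of these data known. Named genes are the listed ones, the 12 highest and 8 lowest ratios to the cDC clusters, the 5 highest and 5 lowest genotype ratios, Batf3 and the antibody genes; others were named after their values were seen. Alternatives changed the scaling, the minimum level, the cells kept, the thinning depth, the adt scale and the motif. Some genes are not reported here.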

Additional observations from a re-analysis of the deposited data

How the results depend on the processing

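No paired analysis was possible because each genotype is 1 library, and for the same reason no replicate could be left out. The count of genes at least 2-fold above every cDC cluster was 150, and 155 to 190 under 5 alternatives, 1 of them (only pDC-labelled C14 cells) added after seeing the data. The share of C14 in WT was 1.78% without the cDC1 clusters. The number of genes past 2-fold between genotypes, 16, was 28 with mitochondrial and ribosomal protein genes left out of the total, 9 (8 of them among the 16) with each cell given equal weight, 71 at a minimum of 20 CPM, 6 at 100 CPM and 1525 with 1 UMI in each library as the only minimum, where most genes rest on few counts. Among pDC-labelled cells, an alternative added after seeing the data, it was 8. The marker shares depend on depth by construction: at 2000 UMIs they were 96.8% for Siglech, 100% for Bst2, 94.1% for Tcf4 and 35.2% for Pacsin1, and unthinned 99.6%, 100%, 99.6% and 84.3%. Among C14 and 13 cDC clusters the CD4 median ranked 1 on every scale. CD8A ranked 5 by counts and 4 as a share of tags, CD11B 13 and 10, and CD24 9, 11 by the normalized value and 13 as a share; the cause was not tested. None of the gene ratios recomputed under the alternatives turned its direction.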

Other observations

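Of the 6 adt rows that matched no antibody by the rule, 1 had its highest median of all clusters in C14, with 48 counts per cell, 52 in WT and 43 in Batf3-/- cells. The next clusters, C9 and C17, had medians of 47. Its best correlation with a panel gene outside C14 was 0.045, so no antibody name is given to it.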
